A study of Mus musculus with 4 samples.

Results

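The fibrillar collagen genes and the enzymes and chaperone that process their chains were followed by RNA sequencing in mouse muscle stem cells, the Pax7-expressing precursors that repair skeletal muscle. The group holds 10 genes, selected by symbol from the 11603 genes in the deposited table. Of these, 6 encode chains of collagens I, III and V (Col1a1, Col1a2, Col3a1, Col5a1, Col5a2 and Col5a3) and 4 encode proteins that modify, fold or crosslink them (P4ha1, Plod2, Serpinh1 and Lox). All 10 were present in the table, and none was removed by a filter on low values. The cells came from hindlimb muscle of male C57BL/6 mice aged 4 to 5 months and were sorted as VCAM1-positive and negative for CD31, CD45 and Sca1. There were 2 control libraries and 2 libraries labelled conditional knockout of Hairless (Hr), a nuclear corepressor. Both groups share strain, sex, age and sort. Neither the Cre driver nor the time of deletion nor the genotype of the controls is given in the sources used here. Values are RPKM, reads scaled by exon length and library size, and libraries are named control 1, control 2, knockout 1 and knockout 2.

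Fibrillar collagens are the rope-like proteins of the interstitial matrix. Collagen I is built from the chains of Col1a1 and Col1a2, collagen III from Col3a1 alone, and collagen V, which nucleates and limits the width of fibrils, from the chains of Col5a1, Col5a2 and Col5a3. The chains are hydroxylated on proline and lysine in the endoplasmic reticulum, fold into a triple helix with help from the chaperone HSP47 (Serpinh1), lose their end propeptides after secretion, and are crosslinked outside the cell by lysyl oxidase (Lox). In muscle most interstitial collagen is made by fibro-adipogenic cells, and muscle stem cells also make collagens, collagen V among them, which acts in their niche.

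Reads on the listed genes numbered 21757211 to 34101213 per library. The members were covered by 467 to 66844 reads per library, so counting error was at most 4.63% of a value. Hr itself stood at 9.28 and 8.94 RPKM for control and 7.15 and 7.90 for knockout (limma adjusted p = 0.431). Its transcript was therefore still present in the libraries labelled knockout. The values are summed over all exons and cannot show whether a part of the gene was deleted, so the direction of each difference rests on the labels. The labels do not tie replicates to separate animals or cultures. Each p-value therefore measures spread between these libraries only. In these bulk libraries, fewer cells of a type and less RNA per cell cannot be told apart.

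In all 6 chain genes each knockout library lay below each control library, a pattern seen in 26.2% of all genes. The size of the difference was uneven, from 5.87-fold for Col1a2 and 5.59-fold for Col1a1 to 1.32-fold for Col5a1 (ratios of group means). The processing genes were mixed. Lox was 2.97-fold higher, Serpinh1 was 1.39-fold lower, and P4ha1 and Plod2 overlapped between the groups. After Benjamini-Hochberg adjustment over all 11603 genes, limma called 1 of the 10 members lower, Col1a1, where 0.00862% of all genes were called lower. It called 0 members higher, as it did 0% of all genes. At an unadjusted p under 0.05 limma counted 5 members lower and 1 higher, against 7.69% and 10.3% of all genes. By the q-value in the authors' deposited table, at a threshold of 0.05, 4 members were lower (Col1a1, Col1a2, Col3a1 and Col5a3), against 4.26% of all genes, and 1 was higher (Lox), against 3.59% of all genes. With limma-voom on recovered reads the counts were 1 lower and 0 higher, against 0.0689% and 0.0259% of all genes.

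**Figure D1:**
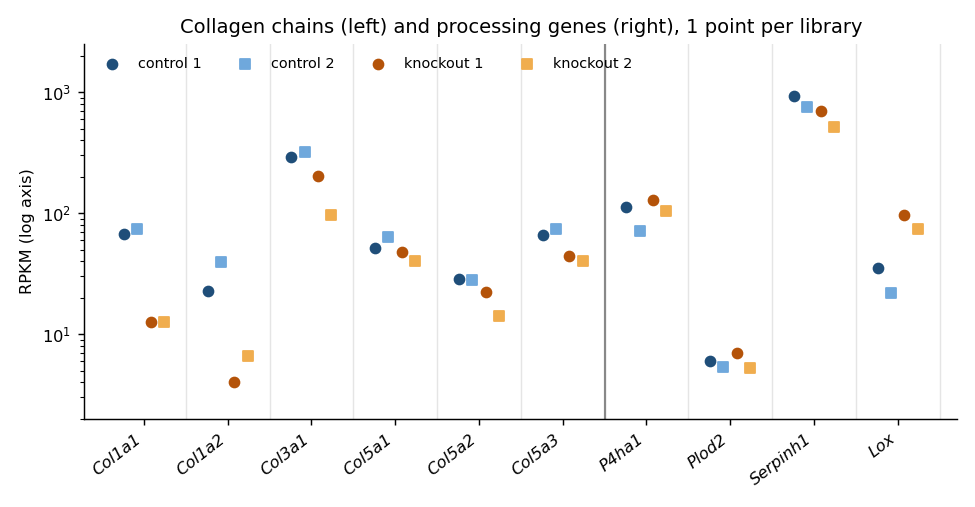
RPKM of the 10 members on a log axis, with 1 point for each of the 2 control (blue) and 2 knockout (orange) libraries, chains on the left and processing genes on the right. Both knockout points lie below both control points for the 6 chains and Serpinh1, above them for Lox, and among them for P4ha1 and Plod2.

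Collagen I showed the widest gap of the 3 collagen types. Col1a1, the main chain of collagen I (Entrez gene 12842, mm10 chromosome 11, 94936224 to 94953042, plus strand), stood at 67.0 and 73.4 RPKM for control and 12.5 and 12.6 for knockout. The replicates of each group lay close together and the groups far apart. The means were 70.2 ± 4.57 and 12.6 ± 0.106 RPKM (SD, n = 2), and the log2 fold change on the log2(RPKM + 0.5) scale was -2.43 ± 0.14 (SE, limma adjusted p = 0.0385). The size held without any 1 library, with log2 fold changes of -2.50 to -2.37, but the call did not. The limma adjusted p became 0.0805 or 0.411 when control 1 or control 2 was dropped, and 0.0730 or 0.0619 when knockout 1 or knockout 2 was. Quantile normalization gave -2.57 with a limma adjusted p of 0.0564.

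Col1a2, the partner chain (Entrez gene 12843, chromosome 6, 4504814 to 4541543, plus strand), stood at 22.6 and 39.4 RPKM for control and 4.02 and 6.56 for knockout. The control libraries differed more from each other here than for Col1a1, and both stood above the knockout libraries. Its log2 fold change of -2.43 equalled that of Col1a1, but with a standard error of 0.33 the limma adjusted p was 0.133. In the authors' deposited table its q-value was 8.12e-12 and that of Col1a1 was 8.17e-10.

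Collagen III had the most abundant chain RNA per length in every library. Col3a1 (Entrez gene 12825, chromosome 1, 45311538 to 45349706, plus strand) stood at 294 and 323 RPKM for control and 204 and 96.1 for knockout. The knockout libraries were unlike each other, and knockout 1 came closer to the controls than to knockout 2. The log2 fold change was -1.14 ± 0.35 (SE, limma adjusted p = 0.208), and the q-value in the authors' deposited table was 0.0225. It was -1.67 without knockout 1 and -0.60 without knockout 2, so the size rests on which knockout library is read.

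The collagen V chains were lower by smaller amounts. Col5a3 (Entrez gene 53867, chromosome 9, 20770050 to 20815067, minus strand) stood at 66.1 and 73.8 RPKM for control and 44.2 and 40.1 for knockout, which gives a log2 fold change of -0.72 ± 0.14 (SE). Replicates were close in both groups. Its limma adjusted p was 0.153, and its q-value in the authors' deposited table was 0.0179. Col5a2 (Entrez gene 12832, chromosome 1, 45374321 to 45503282, minus strand) stood at 28.3 and 28.0 RPKM for control and 22.5 and 14.2 for knockout, with a log2 fold change of -0.64 (95% interval -1.22 to -0.06, unadjusted) and a limma adjusted p of 0.244. As for Col3a1, knockout 2 was the lowest library. Col5a1 (Entrez gene 12831, chromosome 2, 27886425 to 28039514, plus strand) stood at 51.7 and 63.8 RPKM for control and 47.7 and 40.0 for knockout. Control 1 and knockout 1 were nearly level. The log2 fold change was -0.39 (95% interval -0.82 to 0.04, unadjusted), with a limma adjusted p of 0.308. Neither gene had a q-value under 0.05 in the authors' deposited table, where Col5a2 had 0.0850 and Col5a1 had 0.255.

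**Figure D2:**
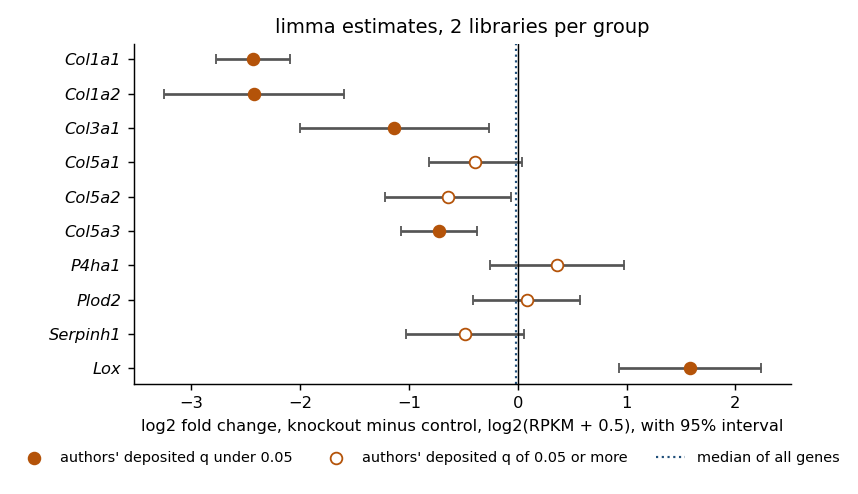
Log2 fold change of each member, knockout minus control, from limma on log2(RPKM + 0.5), with its unadjusted 95% interval. Filled points have a q-value under 0.05 in the authors' deposited table, and the dotted line is the median of all genes at -0.01. The collagen I chains sit near -2.43, collagen III at -1.14, the collagen V chains between -0.72 and -0.39, and Lox at 1.58.

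Col3a1 and Col5a2 are neighbours on chromosome 1. They face each other tail to tail, with 24614 bases between their ends and 0 other genes of the table in that gap. The 6 chain genes share a fragmented structure, with 48 to 67 separate exons after merging of overlaps, whereas the processing genes had 6 (Serpinh1) to 20 (Plod2). RefSeq upstream sequences of GRCm38.p6, the build also called mm10, were matched for 6 of the 10 members (Col3a1, Col5a1, Col1a2, Serpinh1, Col5a3 and P4ha1). The 150 bases before the start are printed for 3 chains whose RefSeq start is the gene start in the deposited table, to set one chain of collagen III beside a pair of collagen V chains. They are chr1:45311388-45311537 (plus strand, Col3a1), chr2:27886275-27886424 (plus strand, Col5a1) and chr9:20815068-20815217 (minus strand, Col5a3). Each reads 5′ to 3′ along its gene, and capitals mark the CCAAT box, a TATA box spelled TATAAA, and the GC box GGGCGG, on either strand.
Col3a1: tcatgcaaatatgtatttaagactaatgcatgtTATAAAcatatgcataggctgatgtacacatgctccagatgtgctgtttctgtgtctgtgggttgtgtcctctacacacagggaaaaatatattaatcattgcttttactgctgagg
Col5a1: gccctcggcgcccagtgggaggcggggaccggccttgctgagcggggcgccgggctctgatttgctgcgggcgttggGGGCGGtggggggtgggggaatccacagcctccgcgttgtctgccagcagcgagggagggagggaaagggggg
Col5a3: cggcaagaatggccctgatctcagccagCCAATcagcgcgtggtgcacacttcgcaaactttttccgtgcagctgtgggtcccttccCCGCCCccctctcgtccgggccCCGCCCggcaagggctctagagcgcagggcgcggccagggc
The stretches differ in the motifs they hold. That of Col3a1 holds TATAAA, 117 bases before the start, and neither other motif. That of Col5a1 holds GGGCGG, and that of Col5a3 holds CCAAT and, on the opposite strand, GGGCGG at 2 places. Over the 250 bases before the start and on both strands, GGGCGG was in 5 of the 6 matched promoters and in 32.7% of all 32851 promoters of the RefSeq table. CCAAT was in 2 (Col1a2 and Col5a3) against 33.8%, TATAAA in 1 (Col3a1) against 12.4%, ACGTG in 4 against 16.6%, GCGTG in 2 against 28.2%, and GAANNTTC in 0 against 6.69%. No overlap between motifs was removed. These matches are a description of letters in a window. For Col1a2 the deposited gene model starts 804 bases before the RefSeq start, so its window lies inside that model and is not printed.

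The RNA of the 6 chains summed to 529 and 601 RPKM for control and 335 and 210 for knockout. The means were 565 ± 50.8 and 272 ± 88.4 RPKM (SD, n = 2), 2.08-fold lower in knockout. As a share of all reads listed, the chains took 0.409% and 0.503% in control and 0.231% and 0.140% in knockout. Col3a1 made up most of this sum in 3 libraries and 45.8% of it in knockout 2. Collagen I chains made up 16.9% and 18.8% of the sum in control and 4.94% and 9.16% in knockout. Collagen V chains made up 27.6% and 27.5% in control and 34.2% and 45.0% in knockout. The smaller pool of chain RNA in the knockout libraries was thus poorer in collagen I and richer in collagen V, with no overlap between groups for either share.

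**Figure D3:**
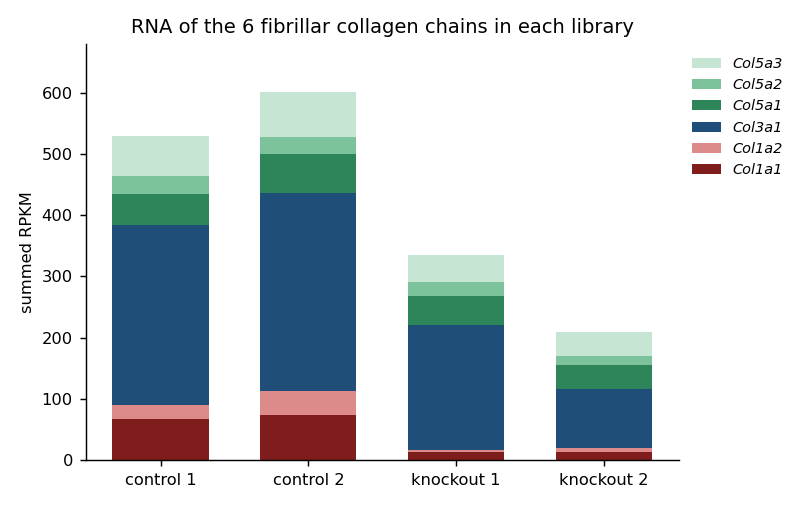
Stacked RPKM of the 6 fibrillar chain genes in each library. The whole bars reach 529 and 601 RPKM for control and 335 and 210 for knockout, and the red collagen I segments shrink to 4.94% and 9.16% of the bar in knockout.

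Ratios within a library do not depend on how libraries were scaled. The ratio of Col1a1 to Col1a2 was 2.96 and 1.86 in control and 3.10 and 1.93 in knockout, so the groups overlapped while both chains were lower. It was high in both libraries numbered 1 and low in both numbered 2, although no label says that a number marks a shared day or animal. The level of this ratio depends on the exon lengths in the table, 6563 bases for Col1a1 and 12136 for Col1a2, but its change between libraries does not. The ratio of Col5a1 to Col5a2 also overlapped, at 1.83 and 2.28 in control and 2.12 and 2.82 in knockout. Ratios between collagen types did not overlap. Col1a1 to Col5a1 went from 1.29 and 1.15 in control to 0.262 and 0.316 in knockout, a difference of -2.09 on the log2 scale. Col3a1 to Col1a1 went from 4.38 and 4.39 to 16.3 and 7.60, a log2 difference of 1.34. In a two-sided exact permutation test each of these last ratios had p = 0.333, the smallest that 2 libraries against 2 can give, and the ratios that overlapped had p = 0.667. Adjusted over the 4 ratios, all had an exact permutation p of 0.667.

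**Figure D4:**
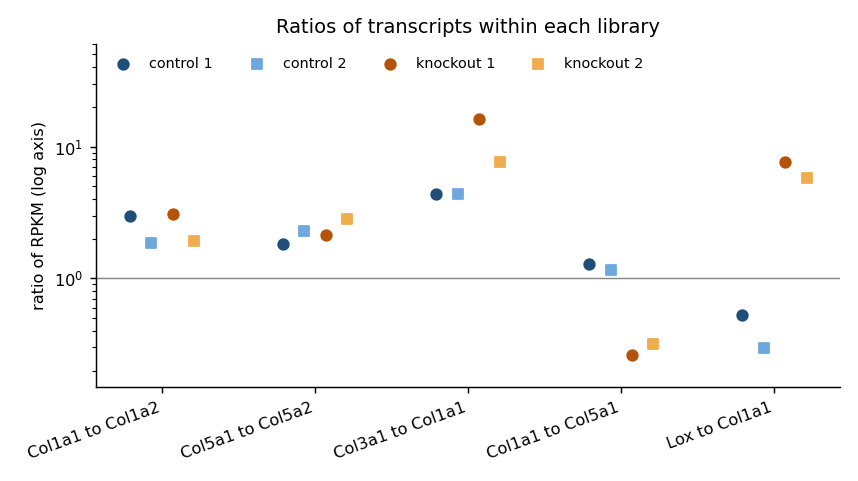
Ratios of RPKM within each library on a log axis, 1 point per library. The points of both groups intermix for Col1a1 to Col1a2 and for Col5a1 to Col5a2, and separate for Col3a1 to Col1a1, Col1a1 to Col5a1 and Lox to Col1a1.

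Among the processing genes, Lox, the copper enzyme that oxidises lysines to crosslink collagen and elastin (Entrez gene 16948, chromosome 18), stood apart by its direction. Its level was 35.1 and 21.9 RPKM for control and 96.2 and 73.3 for knockout. Both knockout libraries exceeded both controls, as in 25% of all genes. The means were 28.5 ± 9.38 and 84.7 ± 16.2 RPKM (SD, n = 2), with a log2 fold change of 1.58 ± 0.26 (SE, limma adjusted p = 0.135). Its q-value in the authors' deposited table was 5.79e-05. Set against the main substrate chain, a ratio chosen after its values were seen, Lox to Col1a1 was 0.525 and 0.298 in control and 7.70 and 5.80 in knockout. Lox thus moved from below Col1a1 in both control libraries to above it in both knockout libraries.

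Serpinh1 (Entrez gene 12406, chromosome 7, 99345375 to 99353230, minus strand) was the most abundant member in every library, with 936 and 758 RPKM for control and 702 and 516 for knockout. It ranked above at least 98.5% of the genes in each library. The groups did not overlap, but control 2 and knockout 1 were close. The log2 fold change was -0.49 (95% interval -1.03 to 0.06, unadjusted), with a limma adjusted p of 0.318 and a q-value of 0.225 in the authors' deposited table. Under quantile normalization it was -0.98, the largest move of a member among the scalings tried, with a limma adjusted p of 0.193.

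P4ha1, a catalytic subunit of prolyl 4-hydroxylase (Entrez gene 18451, chromosome 10, 59323296 to 59373304, plus strand), stood at 112 and 71.7 RPKM for control and 129 and 103 for knockout. Control 1 exceeded knockout 2, so the groups overlapped. The log2 fold change was 0.36 (95% interval -0.26 to 0.98, unadjusted), with a limma adjusted p of 0.491. Plod2, a lysyl hydroxylase that acts on the telopeptides used in crosslinks (Entrez gene 26432, chromosome 9, 92542223 to 92608428, plus strand), was the lowest member in control, at 6.05 and 5.38 RPKM, and reached 6.97 and 5.27 among the knockouts. Its log2 fold change of 0.08 (95% interval -0.41 to 0.57, unadjusted) turned to -0.13 with scaling by the reads listed and to -0.10 without knockout 1. These intervals include changes of either sign.

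The order of the members by level changed between the groups. In control 1 the order was Serpinh1, Col3a1, P4ha1, Col1a1, Col5a3, Col5a1, Lox, Col5a2, Col1a2 and Plod2. Control 2 kept the same first 2 and last members, with Col5a3, Col1a1 and P4ha1 within 71.7 to 73.8 RPKM of each other. In both knockout libraries Lox took rank 4, above all collagen I and V chains, and Col1a1 took rank 8. Col5a1 and Col5a3 were nearly level in knockout 2, at 40.0 and 40.1 RPKM. In knockout 1 Col1a2, at 4.02 RPKM, lay below Plod2.

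The rest of the collagen pathway was read from a list of genes ordered by role. Besides the members it holds 79 genes, of which 66 were in the table. By the q-value in the authors' deposited table, 7 of the 66 (10.6%) were lower, against 4.26% of all genes, and 0 were higher. Adjusted over all genes, limma and limma-voom each called 0 of the 66 in either direction, and at an unadjusted p under 0.05 limma counted 17 lower (25.8%, against 7.69% of all genes) and 1 higher (against 10.3% of all genes). The median log2 fold change was -0.26, against -0.01 for all genes. With scaling by the reads listed, these medians were -0.47 and -0.20.

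Genes for the removal of propeptides, which lets fibrils assemble, held 3 of the 7 genes lower in the authors' deposited table, among 5 measured (60%, against 4.26% of all genes). Adamts2, the protease of the amino-terminal propeptide, had 2.55 and 2.55 RPKM for control and 0.519 and 0.971 for knockout (q = 0.000143 in the authors' deposited table). Bmp1, the protease of the carboxy-terminal propeptide, had 56.7 and 52.3 RPKM against 37.1 and 25.7 RPKM. Its enhancer Pcolce had 20.5 and 20.5 RPKM against 10.5 and 13.0 RPKM. Both knockout libraries lay below both controls in all 3 genes, as in 26.2% of all genes. They were named by their q-values from these same libraries, so this pattern adds no separate evidence. The limma adjusted p values were 0.133, 0.179 and 0.161.

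In the proline hydroxylation group 1 of 9 further genes (11.1%) was lower in the authors' deposited table, against 4.26% of all genes. With 1 gene per role, the counts in this paragraph say little about a role. This was Leprel1 (P3h2), a prolyl 3-hydroxylase, with 4.98 and 6.64 RPKM for control and 2.96 and 4.07 for knockout. Chaperones other than Serpinh1 had 1 of 5 (20%), Fkbp10, a collagen-folding isomerase, with 27.5 and 37.7 RPKM against 20.1 and 20.6 RPKM. Genes of export from the endoplasmic reticulum had 1 of 10 (10%), the zinc transporter gene Slc39a13, with 5.47 and 8.07 RPKM against 3.57 and 4.53 RPKM. Among further fibrillar chains, Col27a1 was measured. It had 1.43 and 1.11 RPKM against 0.413 and 0.313 RPKM, and a q-value of 1.64e-07 in the authors' deposited table. In each of these 4 genes both knockout libraries lay below both controls, as in 26.2% of all genes. The genes were named by their q-values from these same libraries, so this pattern adds no separate evidence.

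The remaining roles held 0 genes with a q-value under 0.05 in the authors' deposited table. Among the 4 relatives of Lox, Loxl1 had 18.9 and 25.6 RPKM for control and 23.5 and 28.9 for knockout, and Loxl2 had 9.20 and 4.79 RPKM against 5.73 and 3.40 RPKM. Loxl3 and Loxl4 were below 2 RPKM in every library. Both knockout libraries lay below both controls for Loxl3 and Loxl4, as in 26.2% of all genes, and Loxl1 and Loxl2 overlapped. The unadjusted intervals of all 4 log2 fold changes included 0, so no direction is claimed for these relatives. For lysine modification, Glt25d1 (Colgalt1), a collagen galactosyltransferase, had a log2 fold change of -0.22 and the lysyl hydroxylase Plod3 one of -0.02. Fibril-associated proteins ranged from -0.50 to 0.69, and their most abundant genes were Prelp (278 and 207 RPKM, 250 and 248 RPKM) and Dpt (131 and 117 RPKM, 323 and 124 RPKM). The receptors Itgb1 and Ddr1 had log2 fold changes of -0.41 and -0.34, the collagen-cleaving proteases Mmp2 and Mmp14 -0.41 and -0.18, and the upstream genes Ctgf and Hif1a -0.25 and -0.13.

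**Figure D5:**
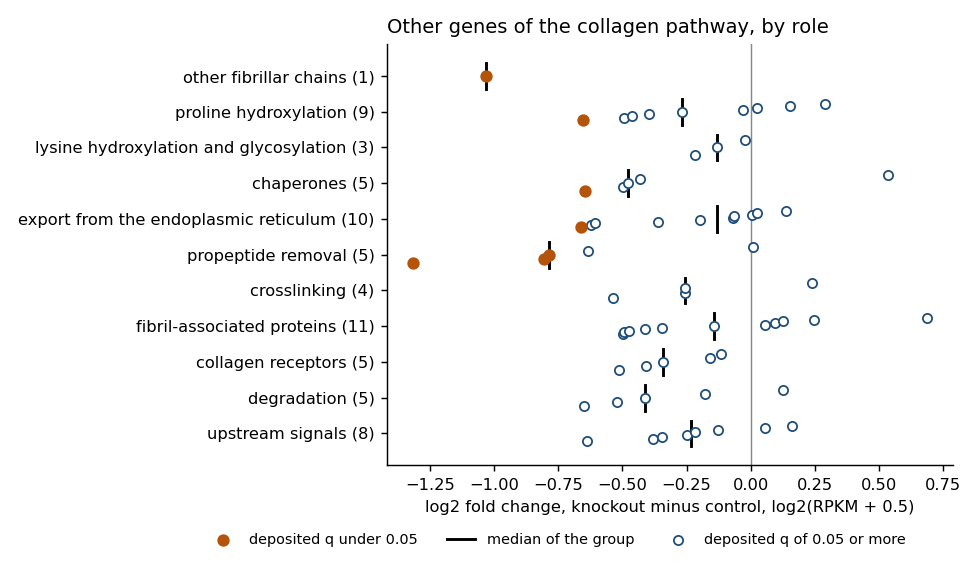
Log2 fold change, knockout minus control, of the 66 further pathway genes in the table, by role, with the number of genes per role in brackets. Black bars are group medians and filled points have a q-value under 0.05 in the authors' deposited table. All 7 filled points lie below 0, and 3 of them are propeptide removal genes.

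Collagens of other types were read for comparison, as all further symbols of the form Col, number, a, number. There were 19, and each had a log2 fold change below 0 (median -0.50), as had 5999 of all 11603 genes. Under quantile normalization this held for 18, without control 1 for 16 and without knockout 1 for 17. With the filter at a mean of 1 RPKM, 12 chains remained and all 12 were below 0. By the q-value in the authors' deposited table, 3 of them were lower (15.8%) and 0 higher, against 4.26% and 3.59% of all genes. These were Col26a1, Col27a1 and Col7a1, an anchoring fibril collagen. Col7a1 was low in every library, with 0.520 and 0.638 RPKM for control and 0.245 and 0.207 for knockout. limma called 0 of them over all genes, with 9 lower and 0 higher at an unadjusted p under 0.05 (7.69% and 10.3% of all genes), and limma-voom called 1, Col26a1. Col26a1 had 9.24 and 13.2 RPKM for control and 1.96 and 1.36 for knockout. In level, and chosen after their values were seen, the collagen IV and VI genes Col4a1 (119 and 110 RPKM, 98.7 and 66.0 RPKM) and Col6a1 (101 and 121 RPKM, 77.9 and 57.2 RPKM) exceeded every member chain except Col3a1 in each library.

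Likeness to Col1a1 was measured as the Euclidean distance between centred log2(RPKM + 0.5) values over the 4 libraries, among 6507 genes with a mean of at least 5 RPKM. Leaving out the members, the 5 nearest genes were Tmem8c (distance 0.38), which encodes the fusion protein myomaker, Col26a1 (0.39), the cell cycle inhibitor gene Cdkn1c (0.45), the myogenic factor gene Myog (0.47) and Dbn1 (0.73), which encodes the actin-binding protein drebrin. Dbn1 had 16.8 and 28.5 RPKM for control and 4.90 and 6.26 for knockout. Col1a2 was at 0.64, with 4 of these genes nearer, and Col3a1 at 1.51, with 26 genes nearer. Lox was the farthest member, at 4.07. With 4 libraries this measure mostly reads the size of the group difference.

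Markers of the sorted cells and of other collagen-making cells were read beside these results. The stem cell markers Pax7 (8.23 and 12.9 RPKM for control, 9.03 and 13.1 for knockout), Myf5 (84.5 and 69.7 RPKM, 103 and 106 RPKM) and Vcam1 (145 and 108 RPKM, 155 and 101 RPKM) were present in every library. Of 12 fibroblast and fibro-adipogenic markers 9 were measured, and their summed level was 1295 and 1084 RPKM for control and 1313 and 1119 for knockout, so the groups overlapped. Gsn, the 1 marker lower in both knockout libraries, supplied most of this sum in every library. The overlap of the sums therefore says little about the other markers. Within this list Ly6a, which encodes the sort antigen Sca1, had 47.9 and 49.5 RPKM for control and 77.4 and 80.7 for knockout. Dpt was high in knockout 1, Dcn had 76.6 and 48.8 RPKM against 51.1 and 83.7 RPKM, and Gsn had 1005 and 847 RPKM against 827 and 795 RPKM. Pdgfra, a defining marker on the list, was not among the 9 measured. In all, 1 of the 9 was lower and 2 were higher in both knockout libraries, against 26.2% and 25% of all genes. The only one of the 9 with a q-value under 0.05 in the authors' deposited table was Cxcl14 (means of 8.49 RPKM for control and 18.5 for knockout, q = 0.0183), named after its values were seen.

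Tendon markers summed to 103 and 56.3 RPKM for control and 40.7 and 83.3 for knockout over 7 of 7 genes. Their defining genes were Tnmd (17.4 and 6.55 RPKM, 5.87 and 13.6 RPKM), Scx (6.45 and 9.28 RPKM, 6.44 and 13.9 RPKM) and Mkx (2.34 and 2.48 RPKM, 3.53 and 4.34 RPKM). Of the 7 tendon genes, 5 had a log2 fold change below 0 (median -0.49), as had 5999 of all 11603 genes. In both knockout libraries 1 of the 7 was lower (Comp) and 1 higher (Mkx), against 26.2% and 25% of all genes. The summed levels of endothelial (47.3 to 87.2 RPKM), blood (12.7 to 19.5 RPKM), pericyte and smooth muscle (29.8 to 60.5 RPKM) and glial markers (7.79 to 18.6 RPKM) also overlapped between the groups. No measured marker of these lists was at 0 in every library. The summed levels of myofibre and of stem cell markers did not overlap between the groups. The myofibre sum was 178 and 713 RPKM for control and 64.1 and 53.0 for knockout, with 6 of 7 genes lower in both knockout libraries, against 26.2% of all genes. Acta1 (144 and 455 RPKM, 36.5 and 31.9 RPKM) supplied most of the sum in every library. The defining genes Ckm (3.63 and 39.4 RPKM, 3.39 and 2.93 RPKM) and Pvalb (5.22 and 54.45 RPKM, 3.53 and 3.68 RPKM) were high in control 2 only. The 12 muscle stem cell markers summed to 5056 and 4081 RPKM for control and 6936 and 7094 for knockout, but they differed in direction. In both knockout libraries 6 were higher and 2 lower, against 25% and 26.2% of all genes, and 4 overlapped. Most of the higher sum came from Sdc4 (means of 1851 and 3145 RPKM) and Myod1 (836 and 1562 RPKM), whereas Itga7 (105 and 55.9 RPKM) was lower, with a q-value of 0.00849 in the authors' deposited table. The part of these shifts in the collagen results was not tested. Both control libraries had a higher myofibre sum, which is mostly Acta1, than either knockout library. Leaving out a library therefore cannot separate myofibre content from group. The log2 difference of the summed chains was -0.96 without control 2, the library with the highest myofibre sum, and -1.06 with all libraries.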

How the data were processed

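RNA of sorted muscle stem cells was sequenced in 2 control and 2 knockout samples. Per the submitters' processing notes, STAR, Trim Galore, edgeR, Subread and its featureCounts were used with build mm10 (GRCm38); the sources used here give neither versions nor settings. No header names the unit of the library columns. They were read as RPKM made by the authors, since every value multiplied by exon length fell on whole multiples of a single read (100% of values within 0.01 reads). The Ct columns were assigned to control and the Fl columns to knockout, replicate numbers being in the names, although Fl is not explained in the labels. The library sizes used by the authors were 85.9% and 92.4% of the reads listed in control 1 and control 2. They were 75.7% and 75.5% in knockout 1 and knockout 2. Relative to scaling by the reads listed, this raises knockout values against control. With scaling by the reads listed, every member had a lower log2 fold change. That of Col5a1 went from -0.39 to -0.62, that of Serpinh1 from -0.49 to -0.72 and that of P4ha1 from 0.36 to 0.12. A q-value per gene was deposited by the authors without its model.

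limma 3.58.1 in R 4.3.3 with a mean-variance trend was fitted to log2(RPKM + 0.5) of the 4 libraries and 11603 genes, genotype being its single term, with Benjamini-Hochberg adjustment and a threshold of 0.05. Fold changes on this scale understate those of low genes. No low-value filter was used. The planned rule for raw counts did not apply. The fit was also run on simulated counts with a single dispersion and no replicate effect. The real libraries may spread otherwise, so that run is no check of the calls made here. The members, lists and naming rules were chosen with earlier results of these data known. All members were named; in each role group the genes past the threshold in limma or in the deposited table were named, or else the 2 of highest mean; the genes nearest to Col1a1 and the defining cell markers were named. List genes were matched through the RefSeq table of GRCm38.p6. Planned protein features were not analysed here. Alternatives were other pseudocounts (0.1 and 1), a filter at a mean of 1 RPKM, other scalings, limma-voom on recovered reads, a replicate block and leaving out each library.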

Additional observations from a re-analysis of the deposited data

How the results depend on the processing

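The 6 chains and Serpinh1 kept a log2 fold change below 0, and Lox and P4ha1 one above 0, under each of the 11 alternatives run for them. Plod2 reversed to -0.134 when scaled by the reads listed, and ranged from -0.10 to 0.27 without 1 library each. The count of members called lower was 1, and it was 0 with quantile normalization and 0 to 0 without 1 library each, where the lone library of a group is assumed to vary like the others. With the replicate number as a replicate block, limma called 4 members lower (Col1a1, Col1a2, Col3a1 and Col5a3), 1 higher (Lox) and 10 of the further pathway genes lower, against 1, 0 and 0 without it. Over all genes the block gave 413 lower and 591 higher. Same-numbered libraries deviated together, with a correlation of 0.41 across 10007 genes, but 2 pairs cannot show that the numbers pair the samples, and no label says so. The summed chain level, -1.06 on the log2 scale, ranged from -1.43 (without knockout 1) to -0.76 (without knockout 2). With 2 libraries per group the number of calls also depends on the model, and a member that limma did not call may still differ.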
